A study of Populus x canadensis with 12 samples.

Results

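This set holds 83 poplar leaf genes, of 41335 in the table, whose transcripts were low at moderate drought and stood higher both in watered leaves and at severe drought. The members were chosen by measured values: the mean of log2(RPKM + 1) at moderate drought had to lie at least 1 below that of the controls and at least 1 below that of severe drought, the highest plant at moderate drought had to lie below the lowest plant of both other stages, and the control mean had to reach 5 RPKM. RPKM is a read count scaled to gene length and library size. The differences between the stages are therefore the rule itself and are given as a description, without a test. The rule is met in full by 83 of the 637 genes that meet its conditions on moderate drought against control alone.

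Leaf RNA was sequenced from 12 single greenhouse plants, rooted cuttings of 2 hybrids, 85 and 89, of a Populus deltoides mother and a Populus nigra father (Populus x canadensis). Stage C was watered normally, stage D1 is labelled moderate drought and stage D2 severe drought, with 2 plants of each hybrid at each stage. Watering was withheld for 8 or 13 days; the labels do not tie these to stages, and D1 is read here as the shorter time. Both hybrids come from the same cross, and each of the 12 libraries carries a clone number of its own. No label records when a plant was harvested or how old it was, so time without water and the age of the leaf cannot be told apart.

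As general background, a leaf that loses water closes its stomata under the hormone abscisic acid, slows growth and lowers parts of primary metabolism, and later builds protective proteins and solutes as its cells dehydrate. Many transcripts of these responses change more as the deficit deepens. The table gives gene IDs without names, and no annotation was used here, so no function is stated for any member. The chromosome number is the one written in the ID.

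Library totals were read back from the steps of the values. The C libraries held from 2534325 up to 10509089 reads, those of D1 from 3181833 up to 4847233, and those of D2 from 2259634 up to 3931067. Replicate 1 of hybrid 89 in D2 stood somewhat apart: across genes it correlated with its stage at a mean of 0.862, whereas the other three D2 plants had 0.903 to 0.915. Without that plant, 102 genes met the rule, 80 of them among the 83. Leaving out a plant loosens the demand that stages do not overlap, so members can drop out only through the stage means. The 24117 genes tested are those that reach 1 RPKM in 4 libraries or more, and over them the median log2 difference was 0.14 for D1 minus C, 0.13 for D1 minus D2 and 0.07 for D2 minus C. In whole leaves, fewer cells of a type and less RNA per cell cannot be told apart.

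The dip of a gene is defined here as its D1 mean minus the midpoint of its C and D2 means on the log2(RPKM + 1) scale. Across the 83 members the D1 mean lay 1.01 to 5.22 below the C mean on the log2(RPKM + 1) scale, with a median D1 minus C of -1.46, and 1.01 to 6.61 below the D2 mean, with a median of 2.18. As ratios of mean RPKM, C exceeded D1 by 2.03 to 47.4 times, with a median of 3.05. D2 exceeded D1 by 2.13 to 119 times, with a median of 5.97. The step up from D1 to D2 was the larger in 64 members and the step down from C to D1 in 19. All D1 plants lay below all C plants in 5.57% of the genes tested, and in all 83 members by the rule. Of the genes tested, limma called 2.42% lower in D1 than in C and 15.8% lower in D1 than in D2 (adjusted p below 0.05). Of the members, 59 and 82 were among these, which the rule makes likely by construction. The first of these counts dropped to 37 when C replicate 2 of hybrid 85 was left out, to 37 for C replicate 1 of hybrid 89, to 38 for D1 replicate 1 of hybrid 85 and to 35 for D1 replicate 2 of that hybrid. Calls over all genes dropped likewise, from 584 to 311, 284, 290 and 281 in these 4 cases.

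Every member had at least 5 reads in each C plant and at least 6 in each D2 plant. All 83 passed the filter on low values, through the C and D2 plants that the rule requires to be high. The median over members of the lowest read count was 79 in C, 27 in D1 and 104 in D2. In 5 members at least 1 D1 plant had 0 reads, where the limit that a count of 0 allows is 3 reads in that library. At this depth such values show a low level and not an absence. Intervals and limits of this kind cover counting error only.

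The members were low in each D1 plant by the rule, which sets every D1 plant below every C and D2 plant. The values per plant are therefore a description. Relative to each gene's C mean, the median member stood at -1.43 and -1.62 on the log2 scale in replicates 1 and 2 of hybrid 85 in D1, and at -1.32 and -1.70 in those of hybrid 89. In D2 the medians were 0.68 and 0.41 in hybrid 85 and 0.76 and 0.84 in hybrid 89. The summed RPKM of the members lay between 7511 and 11811 for C, 2721 and 3408 for D1, and 19957 and 31883 for D2.

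**Figure D1:**
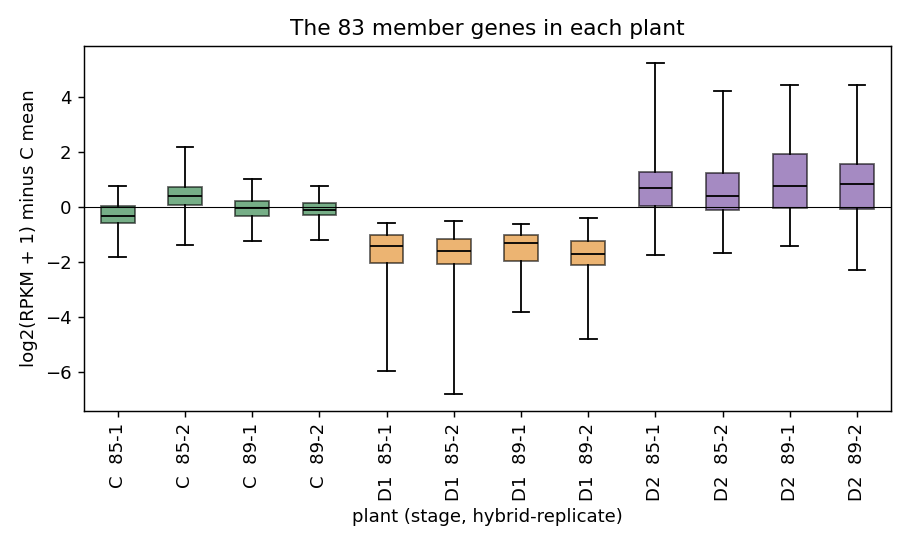
Boxes show the log2(RPKM + 1) of the 83 members minus each gene's C mean, 1 box per plant (median, quartiles, whiskers to the lowest and highest member). The D1 medians lie between -1.70 and -1.32, and the C medians between -0.32 and 0.38.

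At severe drought the D2 plants of most members overlapped those of C or all lay above them. The D2 mean was above the C mean in 64 members and below it in 19, which restates the counts of the larger step given above. The median D2 minus C was 0.76, with a range of -1.35 to 4.61, beside a median of 0.07 over all genes tested. In 21 members (25.3%) all D2 plants lay above all C plants, against 19.3% of all genes tested. In 1 member (1.20%) all D2 plants lay below all C plants, against 17.5% of all genes. The other 61 overlapped, which means only that the D2 plants lay neither all above nor all below the C plants. By limma, 31 members differed between D2 and C (29 higher, 2 lower), which is 37.3% against 40.8% of all genes (21.6% higher, 19.2% lower). The rule used the libraries of both stages and demands a high D2, so these shares are a description.

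In 49 members the D2 mean was within 1 of the C mean on the log2 scale. It was at least 1 above in 32 members, at least 2 above in 8 and at least 1 below in 2. The 21 members whose D2 plants all passed the controls had a median D2 minus C of 1.80 and a median D1 minus C of -1.39, with D2 means of 23.0 to 4862 RPKM. The 61 members with overlap had a median D2 minus C of 0.40 and a median D1 minus C of -1.54. The 2 groups had similar medians of D1 minus C, which is a description without a test. By hybrid, the median D2 minus C over the 83 members was 0.50 in hybrid 85 and 0.80 in hybrid 89, and the median dip was -2.04 and -1.92.

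**Figure D2:**
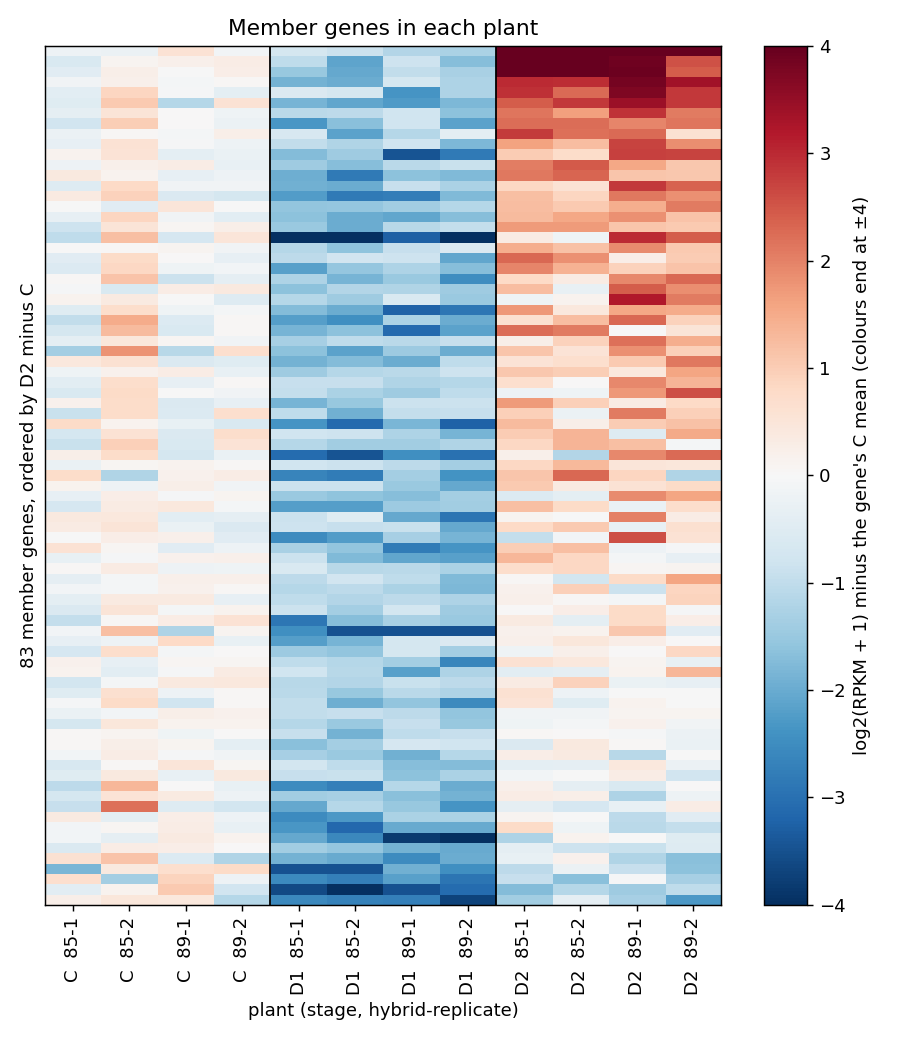
Each row is 1 of the 83 members and each column 1 plant, coloured by log2(RPKM + 1) minus the gene's C mean, with rows ordered by D2 minus C. The D1 columns are blue for all members, and the D2 columns run from red at the top to pale blue at the bottom.

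**Figure D3:**
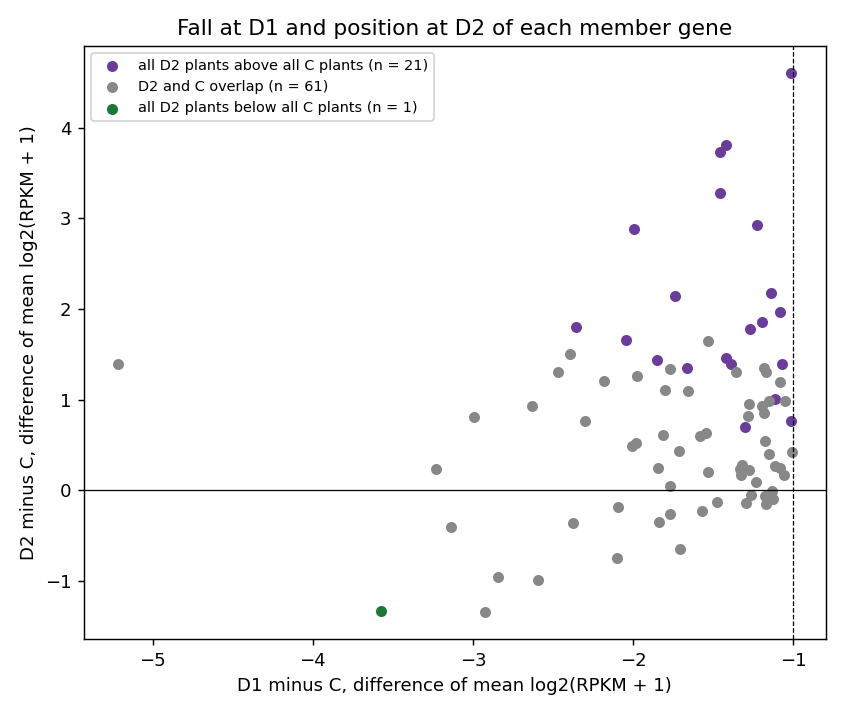
Each point is 1 member, with its D1 minus C on the x axis and its D2 minus C on the y axis, both as differences of mean log2(RPKM + 1). The 21 members whose D2 plants all exceed all C plants reach 4.61, and the dashed line marks the rule's limit of -1.

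For single genes, the 4 plants of a stage are listed in one order: replicates 1 and 2 of hybrid 85, then replicates 1 and 2 of hybrid 89. The dip ranged from -1.08 to -5.91 with a median of -1.97, was at least 2 deep in 40 members and at least 3 deep in 12.

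The deepest dip was that of Potri.010G167200.1 (chromosome number 10, coding length 810 bp). Its C plants had 54.6, 257, 70.0 and 158 RPKM. The D1 plants had 0.776, 0, 10.7 and 3.06 RPKM, from 49 reads in all, and the D2 plants 139, 99.9, 898 and 599 RPKM. The transcript was thus close to the floor in both D1 plants of hybrid 85 and low in those of hybrid 89, and no D1 value came near those of the other stages. Means per stage, ± SD with n = 4, were 135 ± 93.3 (C), 3.64 ± 4.91 (D1) and 434 ± 383 RPKM (D2), and the dip was -5.91.

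A near loss at D1 was also seen in Potri.001G027000.1 (chromosome number 1, coding length 603 bp), at a far lower level. It had 9.47, 25.1, 3.78 and 11.1 RPKM in C and 11.7, 11.4, 22.6 and 7.17 RPKM in D2. In D1 only replicate 1 of hybrid 85 had any reads, 2 in all, or 1.04 RPKM. Per library total, the reads of C stood to those of D1 as 45.8 to 1, with a 95% exact binomial interval of 12.4 to 382, and those of D2 as 56.5 to 1, with an interval of 15.2 to 474. The intervals are wide because of the 2 reads. They pool the plants of a stage, cover counting error only and leave out the spread between plants. The rule chose the gene by these same contrasts, so the ratios and intervals are a description without a test. The D2 mean of 13.2 ± 6.58 RPKM was close to the C mean of 12.4 ± 9.03 RPKM (SD, n = 4).

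The highest D2 values relative to C were in Potri.011G033100.1 (chromosome number 11, coding length 612 bp), Potri.005G214200.1 and Potri.T156100.1. The C plants of Potri.011G033100.1 had 36.2, 35.2, 62.8 and 38.7 RPKM, and the D1 plants 25.2, 22.5, 17.9 and 16.9 RPKM. At D2 the values were 1655, 810.5, 943 and 949 RPKM. D1 minus C was just inside the rule, at -1.01 on the log2 scale, while its D2 mean was 25.2 times its C mean. All D2 plants stood far above every plant of the other stages, with replicate 1 of hybrid 85 the highest.

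Potri.005G214200.1 (chromosome number 5, coding length 1089 bp) had 28.0, 46.1, 49.4 and 53.6 RPKM in C. It had 20.8, 9.18, 23.7 and 12.5 RPKM in D1 and 1051, 815, 646 and 259 RPKM in D2. Potri.T156100.1 (coding length 1113 bp, on no numbered chromosome) had 10.4, 17.3, 14.3 and 17.7 RPKM in C, 4.52, 2.81, 6.92 and 5.38 in D1 and 342, 277, 235 and 82.1 in D2. Both genes were highest in replicate 1 of hybrid 85 and lowest in replicate 2 of hybrid 89 among the D2 plants. Their D2 means were 15.6 times their C means in both cases. The RPKM of the first was 2.33 to 4.60 times that of the second over the 12 plants, a pair set side by side after their values were seen. Whether the 2 genes share reads is not known from the table.

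Potri.010G222700.1 (chromosome number 10, coding length 858 bp) was abundant and stood far above its control level at D2. Its plants had 369, 471, 389 and 423 RPKM in C. They had 111, 103, 251 and 173 RPKM in D1 and 3264, 3170.2, 5898 and 4271 RPKM in D2. The stage means were 413 ± 44.7, 159 ± 68.5 and 4151 ± 1267 RPKM (SD, n = 4), and both hybrids followed the same course, with the D1 plants of hybrid 85 below those of hybrid 89.

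Of the members, 24 had a C mean of at least 100 RPKM and 6 had one under 10 RPKM. The most abundant was Potri.017G108800.1 (chromosome number 17, coding length 1086 bp). Its C plants had 788, 1473, 1039 and 899 RPKM. Its D1 plants had 482, 498, 587 and 326 RPKM and its D2 plants 4529, 3151, 7494 and 4277 RPKM. With 7674 reads over the D1 plants, these values carry little counting error, and the stages did not overlap. The next ID in the table, Potri.017G108900.1 (coding length 165 bp), was also a member, the only pair of members with no listed gene between them. It had 246, 453, 298 and 265 RPKM in C, 154, 133, 176 and 87.5 in D1 and 928, 729, 2016 and 1119 in D2. The ratio of the first to the second was 3.12 to 4.88 over the 12 plants with a median of 3.60. Reads of overlapping or neighbouring models could be split between these 2 IDs, and how the authors counted them was not stated in the labels.

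Potri.007G089000.1 (chromosome number 7, coding length 1623 bp) came next in abundance, and its D2 plants overlapped those of C. The C plants had 464, 751, 1002 and 768 RPKM. Those of D1 had 436, 356, 221 and 214 RPKM and those of D2 547, 559.6, 957 and 612 RPKM. The D1 values lay just below the lowest C plant in replicate 1 of hybrid 85 and well below it in hybrid 89. The means were 746 ± 220.4 (C), 307 ± 108 (D1) and 669 ± 194 RPKM (D2), each ± SD with n = 4. Potri.010G191900.1 (chromosome number 10, coding length 864 bp) had 691, 1002, 407 and 485 RPKM in C, 167, 210.2, 335 and 333 in D1 and 1978, 1168, 771 and 1063 in D2. Here the D1 plants of hybrid 85 were the lowest, and the D2 plants overlapped those of C.

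Potri.004G019900.1 (chromosome number 4, coding length 1218 bp) was very low at D1 and did not pass the controls at D2. The C values were 136, 115, 189.5 and 162 RPKM. The D1 values were 35.1, 23.9, 9.39 and 7.79 RPKM and the D2 values 62.5, 161, 145 and 106 RPKM. On the log2 scale D1 minus C was -3.14 and D2 minus C -0.40, and both D1 plants of hybrid 89 were lower than both of hybrid 85.

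A partial return was seen in the 3 members with the lowest D2 minus C. Potri.008G103900.1 (chromosome number 8, coding length 522 bp) had 35.4, 52.8, 98.9 and 28.0 RPKM in C. It had 3.01, 1.80, 3.33 and 4.74 RPKM in D1 and 13.6, 21.0, 17.1 and 23.4 RPKM in D2. This is the member in which all D2 plants lay below all C plants, by a log2 difference of means of -1.33, although every D2 plant was well above every D1 plant. Potri.014G022900.1 (chromosome number 14, coding length 987 bp) had means of 105 ± 41.9 (C), 12.3 ± 3.96 (D1) and 41.6 ± 23.3 RPKM (D2), each ± SD with n = 4. Potri.014G134300.1 (chromosome number 14, coding length 306 bp) had means of 134 ± 77.3 (C), 18.3 ± 4.39 (D1) and 61.9 ± 32.7 RPKM (D2). In both genes the D2 and C plants overlapped, with a D2 minus C of -1.35 and -1.00.

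**Figure D4:**
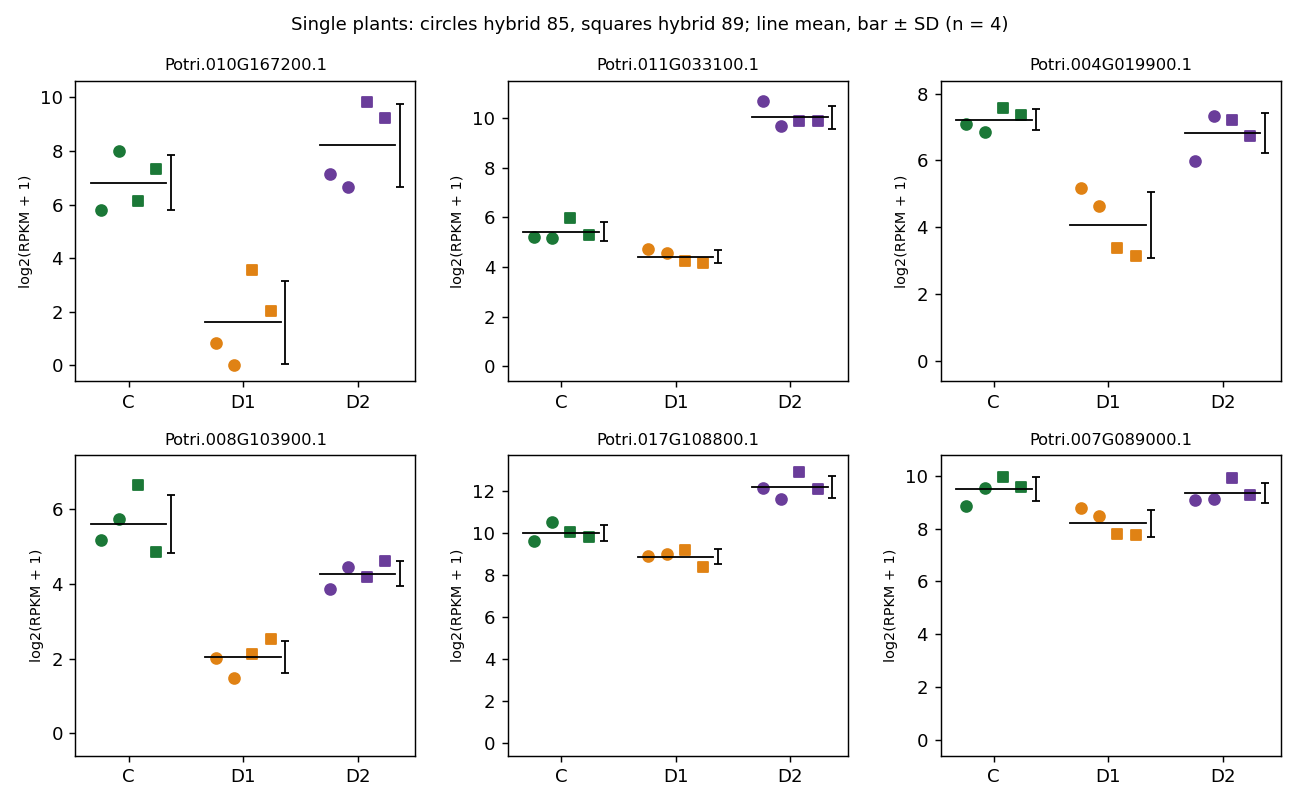
Each point is the log2(RPKM + 1) of 1 plant in 6 members, with circles for hybrid 85 and squares for hybrid 89, a line for the stage mean and a bar for ± SD (n = 4). Potri.010G167200.1 drops close to 0 in D1, Potri.011G033100.1 lies far above its controls in D2, and Potri.008G103900.1 stays below its controls in D2.

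The other members with the 20 deepest dips span a wide range of levels. Potri.008G194100.1 had stage means of 398 ± 153 (C), 74.0 ± 35.1 (D1) and 986 ± 325 RPKM (D2), each ± SD with n = 4, and Potri.002G163400.1 had 70.3 ± 38.5 (C), 11.7 ± 4.64 (D1) and 191 ± 74.3 RPKM (D2). In Potri.019G093800.1 the means were 11.4 ± 7.68 (C), 1.65 ± 0.365 (D1) and 79.1 ± 24.0 RPKM (D2), with all D2 plants above all C plants. Potri.016G041300.1, the member with the lowest C mean, had 6.18 ± 1.69 (C), 0.785 ± 0.557 (D1) and 23.0 ± 10.6 RPKM (D2), and its D2 plants also all lay above C.

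Other genes of this group that passed their controls were of middling level. Potri.014G157500.1 had 76.8 ± 42.9 (C), 22.0 ± 11.9 (D1) and 312 ± 27.4 RPKM (D2), and its 4 D2 plants lay close together, at 331, 333, 274 and 308 RPKM. Potri.005G024500.1 had 24.0 ± 11.9 (C), 10.0 ± 4.98 (D1) and 189 ± 85.9 RPKM (D2). Potri.004G133200.1, with 26.9 ± 11.9 (C), 3.59 ± 2.17 (D1) and 50.7 ± 14.5 RPKM (D2), and Potri.003G176900.1, with 17.1 ± 8.28 (C), 2.58 ± 1.83 (D1) and 36.6 ± 30.3 RPKM (D2), had D2 plants that overlapped those of C. The same was true of Potri.001G402600.1, at 133 ± 95.0 (C), 25.8 ± 10.1 (D1) and 322 ± 214 RPKM (D2), and of Potri.005G073300.1, at 127 ± 107 (C), 26.3 ± 10.7 (D1) and 269.7 ± 153 RPKM (D2). In both of these, replicate 2 of hybrid 85 was the highest C plant, at 272 and 283 RPKM.

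The 52 members not named here had C means of 6.46 to 359 RPKM, D1 means of 1.26 to 146 RPKM and D2 means of 6.83 to 959 RPKM. Their dips ran from -1.08 to -2.57 with a median of -1.66, and their D2 minus C from -0.96 to 1.97 with a median of 0.48. At the edge of the rule, D1 minus C was -1.01 in Potri.009G123100.1, Potri.011G033100.1 and Potri.006G113300.1, just inside. It was -0.98 in Potri.013G106000.1 and Potri.004G073700.1 and -0.97 in Potri.002G203400.1, which met every other condition and are not members. The D1 means of the 2 inner genes not described so far were 13.8 and 47.1 RPKM, against C means of 28.6 and 95.4 RPKM. Those of the 3 outer genes were 20.0, 3.13 and 22.4 RPKM, against C means of 41.1, 7.28 and 43.4 RPKM.

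The hybrid was not used by the rule, and the stages hold both hybrids evenly. The rule still limits how far the hybrids can differ in a member, since D1 plants of both must lie below all C and D2 plants. With stage in the model, 2 members (2.41%) differed between the hybrids, against 2.94% of all genes tested (limma, adjusted p below 0.05), and both were lower in hybrid 89. Of all genes, 1.97% were lower and 0.974% higher in hybrid 89. At unadjusted p below 0.05 the shares were 19.3% of members and 18.0% of all genes. Potri.008G210900.1 (chromosome number 8, coding length 768 bp) had 59.8, 42.3, 28.6 and 34.4 RPKM in C. It had 15.6, 12.6, 4.86 and 6.98 RPKM in D1 and 80.1, 92.0, 34.4 and 38.8 RPKM in D2. Both plants of hybrid 89 lay below both plants of hybrid 85 at each stage. The means over 6 plants, 2 per stage, were 50.4 ± 32.9 RPKM in hybrid 85 and 24.7 ± 14.9 in hybrid 89 (SD). These SDs include the differences between the stages. With stage in the model, the gene had a log2 difference of -1.00 ± 0.17 (SE, limma adjusted p = 0.00905). It held its call in every alternative run, with adjusted p of 0.00581 to 0.0317.

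Potri.010G133900.1 (chromosome number 10, coding length 1068 bp) was the other. It had 17.8, 26.2, 7.47 and 4.43 RPKM in C, 2.35, 2.05, 1.16 and 2.12 in D1 and 9.12, 12.9, 4.39 and 2.86 in D2. The hybrids stood apart in C and in D2, whereas at D1 the 4 plants lay close together and overlapped. The log2 difference was -1.14 ± 0.28 (SE, limma adjusted p = 0.0462). The adjusted p ranged from 0.0122 to 0.101 over the alternatives, and it rose above 0.05 when any plant other than D1 replicate 2 of hybrid 89 was left out.

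Differences between hybrids in the course over the stages were tested with each stage and hybrid as its own group of 2 plants (6 groups). The demand that the stages do not overlap limits how far the hybrids can differ within the set. For D2 minus C, 3 members (3.61%) were called, against 0.469% of all genes tested, and at unadjusted p below 0.05 the shares were 24.1% and 18.3%. In these 3, D2 minus C was 2.57 to 3.06 in hybrid 89 and -0.97 to 0.55 in hybrid 85. Leaving out 1 plant gave 0 to 11 members. It gave 0 in 8 of the 12 cases, namely C replicate 2 of hybrid 85, both C plants of hybrid 89, both D1 plants of hybrid 85, D1 replicate 2 and D2 replicate 1 of hybrid 89, and D2 replicate 2 of hybrid 85. It gave 1 without D1 replicate 1 of hybrid 89 or D2 replicate 1 of hybrid 85, 4 without C replicate 1 of hybrid 85 and 11 without D2 replicate 2 of hybrid 89. Over all genes tested, the share called moved in the same way, to 0.14% or less in those 8 cases and to 10.4% (2470 genes) without D2 replicate 2 of hybrid 89, beside 13.3% of the members. With D2 replicate 2 of hybrid 89 left out, that hybrid had only replicate 1 in D2, the plant that stood somewhat apart from its stage. The excess of 3.61% over 0.469% thus rests on 3 genes near the threshold and is not a result about the set. The count was 0 as well with a pseudocount of 0.1, with a pseudocount of 0.5 and with median-ratio scaling. The replicate block gave 1 (1.2%, against 0.249% of all genes), and quantile normalization 2 (2.41%, against 0.245%). No filter on low values gave 3 (3.61%, against 0.654%), and limma-voom on the recovered reads 4 (4.82%, against 0.274%). The median difference, hybrid 89 minus hybrid 85, was 0.05 over the members and 0.20 over all genes.

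Potri.010G209900.1 (chromosome number 10, coding length 759 bp) had 446, 628, 231 and 318 RPKM in C. Its D1 plants had 44.3, 33.4, 68.8 and 46.8 RPKM and its D2 plants 433, 169, 1432 and 1826 RPKM. In hybrid 85 the D2 plants lay below those of C, and in hybrid 89 far above them. D2 minus C was -0.97 in hybrid 85 and 2.57 in hybrid 89, a difference of 3.54 ± 0.61 (SE, limma adjusted p = 0.0419, range over alternatives 0.0106 to 0.145).

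Potri.008G152300.1 (chromosome number 8, coding length 2109 bp) had 18.3, 21.3, 16.2 and 11.2 RPKM in C. It had 6.85, 5.48, 10.3 and 5.18 RPKM in D1 and 14.3, 18.1, 158 and 72.3 RPKM in D2. The D2 plants of hybrid 85 lay at or just below their C values, while those of hybrid 89 stood several times above every other value. The difference in D2 minus C was 3.18 ± 0.57 (SE, limma adjusted p = 0.0486, range over alternatives 0.00217 to 0.164).

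Potri.002G019700.1 (chromosome number 2, coding length 762 bp) differed in both respects. Its C plants had 34.1, 45.6, 23.3 and 25.9 RPKM. Those of D1 had 8.66, 11.1, 1.96 and 3.52 RPKM and those of D2 63.9, 52.9, 213 and 211 RPKM. Hybrid 89 was lower than hybrid 85 in C and D1 and higher in D2, with no overlap at any stage. D2 minus C was 0.55 in hybrid 85 and 3.06 in hybrid 89, a difference of 2.51 ± 0.40 (SE, limma adjusted p = 0.034, range over alternatives 0.00672 to 0.139). Its dip was -2.18 in hybrid 85 and -4.33 in hybrid 89, and the difference of -2.16 ± 0.34 was the only one called among the members (1.20%, against 0.730% of all genes, limma adjusted p = 0.0283, range over alternatives 0.0092 to 0.138). The dip call was lost in 7 of the 12 cases with a plant left out: C replicate 2 of hybrid 89, every D1 plant and both D2 plants of hybrid 85. Without D2 replicate 2 of hybrid 89, 7 members (8.43%) were called, against 7.33% of all genes tested (1736 genes). At unadjusted p below 0.05 the dip differed in 20.5% of members and 17.0% of all genes. The dip was deeper in hybrid 89 in 40 members and deeper in hybrid 85 in 43. The median difference in the dip, hybrid 89 minus hybrid 85, was 0.06 over the members and 0.21 over all genes tested.

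**Figure D5:**
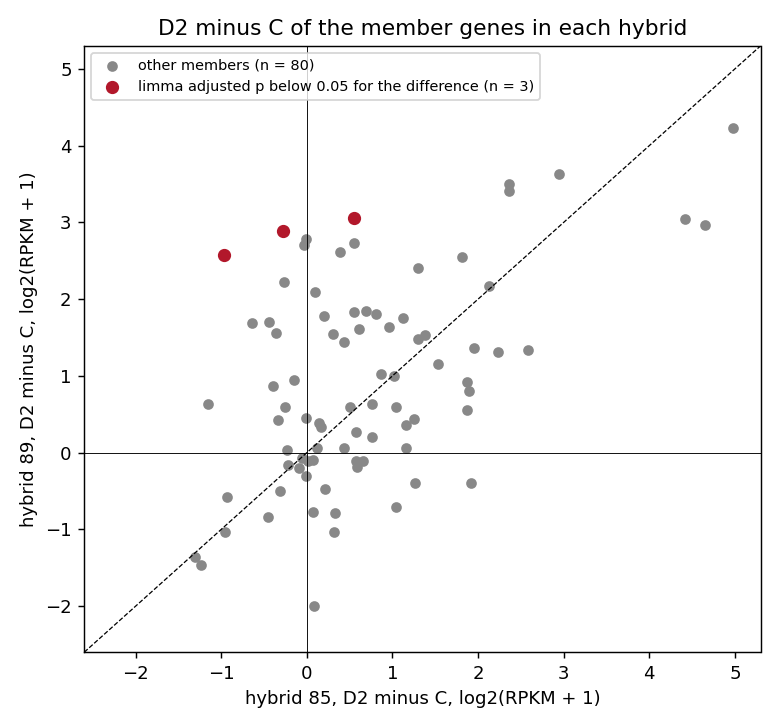
Each point is 1 member, with D2 minus C in hybrid 85 on the x axis and in hybrid 89 on the y axis (differences of mean log2(RPKM + 1), 2 plants per group), and the dashed line marks equal values. The 3 members called for the difference lie between 2.57 and 3.06 in hybrid 89 and between -0.97 and 0.55 in hybrid 85.

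Within D2, both plants of hybrid 89 lay above both of hybrid 85 in 23 members (27.7%, against 24.7% of all genes tested) and below them in 25 (30.1%, against 23.2%). Within D1 this held in 27 members (32.5%, against 35.4%) and 22 members (26.5%, against 25.4%). In C, hybrid 89 was above in 13 members (15.7%, against 10.7%) and below in 15 (18.1%, against 31.9%). The set thus held members with either order of the hybrids at each stage.

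The control plants of hybrid 85 took opposite ends of the C range in many members. Replicate 2 was the highest of the C plants in 50 members (60.2%, against 35.7% of all genes tested), and replicate 1 was the lowest in 45 (54.2%, against 16.1%). The former library had 2647763 reads and the latter 10509089. Leaving out a plant loosens the demand that stages do not overlap. Without replicate 2 of hybrid 85 in C the rule gave 75 genes, 68 of them among the 83. Without replicate 1 of hybrid 85 in C it gave 105, 82 of them shared. The rule used the values of these C plants, and a high C plant raises the C mean that it sets against D1. The shares beside all genes are therefore a description. What part the rule or depth has in these orders was not tested.

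Spacing of the members along the chromosomes was not compared with that of other genes. By ID, the members were spread over many chromosome numbers. They fell on 19 chromosome numbers, and 1 ID had no chromosome number. For comparison, 14683 genes pass the filter on low values and reach a C mean of 5 RPKM. Number 1 held 10 members (12.0%, against 11.7% of those genes) and number 2 held 9 (10.8%, against 7.36%). Numbers 6, 9, 10 and 17 held 6 members each (7.23%), against 7.76%, 4.73%, 6.93% and 3.21% of those genes. The other numbers held 1 to 5 members each. The coding length had a median of 1083 bp (quartiles 742.5 and 1424 bp) in the members and 1122 bp (693 and 1655 bp) in those 14683 genes. The C mean had a median of 41.3 RPKM in the members and 16.7 RPKM in those genes. The rule itself sets demands on level and on separation of the stages, so this difference is a description.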

How the data were processed

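RPKM values of 12 libraries were deposited, computed by the authors per the file headers. Trimmomatic 0.32 is a tool listed among the submitters' processing notes. How reads were aligned and counted, whether strand was used and on which build is not given in the sources used here, so reads shared by near-identical copies, overlapping genes or antisense partners are uncertain for every gene. RNA was total RNA in TruSeq libraries, per the labels' protocols. 3 columns of stage means were not used.

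In each library the RPKM of a gene moves in steps of 1 read, whose size depends on coding length and library total. Totals, lengths and reads were recovered from these steps. A length was accepted only where all values of the gene came out whole within 0.01 reads. That 100.0% of the values of such genes were whole is therefore fixed by the method and is no check. The recovered reads added up to 99.973% to 99.998% of the library totals. Totals ranged from 2259634 to 10509089 reads.

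The members and lists were chosen with earlier results of these data known. Log2(RPKM + 1) was fitted with limma 3.58.1 in R 4.3.3 over 24117 genes (1 RPKM or more in 4 or more libraries), with stage and hybrid as additive terms, or with 6 groups of 2 plants for differences between hybrids, a trended variance and Benjamini-Hochberg adjustment over all genes (threshold 0.05). Fold changes on this scale understate the change of low genes. p-values of the fit with 6 groups measure the spread between plants of the same stage and hybrid, and those of the additive fit also hold any difference between the hybrids in their course over the stages. Recovery and fits were tested on simulated data. Named genes are the 20 deepest dips, the 5 highest C means, the 3 highest and 3 lowest D2 minus C, the members called for hybrid terms, 3 genes on each side of the threshold and adjacent IDs. Alternatives were other pseudocounts, minimum values, a log2 difference of 1.5, filters, scalings, limma-voom on the recovered reads, a replicate block, and each library left out. Gene lists, promoter motifs and cell type markers could not be matched to IDs and were not used, so the leaf label was not checked against markers.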

Additional observations from a re-analysis of the deposited data

Results flagged for a closer look

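Of 102 groups of 4 plants (34 named genes at 3 stages), 4 held a plant far from the other three on the log2(RPKM + 1) scale, judged by its gap to the nearest plant over the range of the group. Chance flags about 1 in 20 groups. The gap over the range was 1.0 for Potri.001G027000.1 in D1, where replicate 1 of hybrid 85 had the only 2 reads. It was 0.837 for Potri.011G033100.1 in C (replicate 1 of hybrid 89, high), and 0.869 in C and 0.860 in D1 for Potri.014G022900.1 (replicate 2 of hybrid 89, low in both stages, which are different plants).

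The test of the difference between hybrids picked out 3 members. D2 minus C was higher in hybrid 89 than in hybrid 85 by 3.54 in Potri.010G209900.1, 2.51 in Potri.002G019700.1 and 3.18 in Potri.008G152300.1, each with both D2 plants of hybrid 89 above all C plants of that hybrid. The dip of Potri.002G019700.1 differed by -2.16 between hybrid 89 and hybrid 85. Each group held 2 plants, and each of these calls was lost in at least 1 alternative.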

How the results depend on the processing

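The number of genes meeting the rule was 83, and it was 36 with a log2 difference of at least 1.5 and 127 with median-ratio scaling, 81 of them shared. Leaving out 1 plant, which loosens the demand that stages do not overlap, gave 75 to 124 genes. Members called between the hybrids numbered 2, and 1 with a pseudocount of 0.1, with no filter on low values or with the replicate block. Leaving out 1 plant gave 1 to 3 (1.2% to 3.61%), against 1.43% to 3.08% of all genes tested. Members called for a hybrid difference in D2 minus C numbered 3. They numbered 3 with no filter on low values, 2 with quantile normalization and 4 with limma-voom (shares given above). The number was 0 with pseudocounts of 0.1 and 0.5 and with median-ratio scaling, and 1 with the replicate block; leaving out 1 plant gave 0 to 11, the highest without replicate 2 of hybrid 89 in D2, where calls over all genes went from 113 to 2470. For the dip the number was 1, and 0 when recovered reads went through limma-voom, with 0 to 7 when 1 plant was left out (176 genes of the whole table with all plants and 1736 in the case that gave 7). Leaving out 1 plant gave 35 to 71 members (42.2% to 85.5%) lower in D1 than in C, against 1.18% to 3.97% of all genes tested. It gave 80 to 83 (96.4% to 100%) lower in D1 than in D2, against 13.4% to 16.5%. For D2 and C it gave 29 to 41 members (34.9% to 49.4%) that differed, against 35.2% to 40.7%. The dips of the 31 named members kept their sign in all 19 alternatives. The rule puts every D1 plant of a member below every C and D2 plant, so this is likely by construction and is no check. A group left with 1 plant is assumed to vary like the others. With D2 replicate 2 of hybrid 89 left out, the remaining plant was replicate 1, which stood somewhat apart from its stage. The causes of these changes were not tested.

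The replicate numbers of the labels did not pair the plants: differences between replicates 1 and 2 correlated at -0.243 to 0.082 over 15 pairs of groups. The replicate block moved the counts as given above and changed no other count of members by over 1.5 times. Low members are limited by depth, with 0 reads in at least 1 D1 plant in 5 members.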
